A study of Mus musculus with 4 samples.

Results

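The comparison described here set stroke with an antibody against VCAM1 over stroke with an isotype control antibody, across the whole of both single-cell libraries. Members were all cells of the 2 libraries that held 500 or more unique molecular identifiers (UMIs, tags that count captured transcripts) from 200 or more genes, with mitochondrial UMIs at 10% or below, less the barcodes called as doublets. That left 7489 cells of 15212 in the series, 4657 with anti-VCAM1 and 2832 with isotype. Endothelial cells and microglia made up most of both libraries, so T cells, border macrophages and mural cells were followed in most detail.

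Both groups were male C57BL/6N mice aged 10 months that had a distal middle cerebral artery occlusion (dMCAO), a permanent cortical stroke, and then received antibody for 10 weeks. The other 2 libraries of the series were sham surgery with isotype antibody and dMCAO with an antibody against VLA4, and they are given here for reference only. The tissue, infarct core and roughly 2 mm of cortex around it, was pooled from 4 to 5 mice a group. Live cells were sorted after staining for the endothelial marker CD31 and the leukocyte marker CD45, and the fractions that were collected are not given in the sources used here. Each group was therefore 1 library of pooled animals, and all intervals below are 95% counting intervals that cover counting error and not differences between animals. UMIs of a gene often sit in a few cells, which these intervals do not cover either.

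VCAM1 is an adhesion molecule that activated endothelium presents to blood leukocytes. Its main partner is VLA4, the integrin pair encoded by Itga4 and Itgb1, which T cells, B cells and monocytes use to arrest on the vessel wall and enter inflamed brain. Border macrophages are the long-lived macrophages of the perivascular space and meninges, and mural cells, which are pericytes on capillaries and smooth muscle cells on arterioles, wrap the endothelium from outside.

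The libraries held 16805668 UMIs with isotype and 24387573 with anti-VCAM1 in kept cells, with medians of 5090 and 4515 UMIs per cell. The sham and stroke isotype libraries shared 53 kept barcodes, while the other pairs of libraries shared 1 to 7. In 49 of the 53 the sham barcode held at least 10 times as many UMIs, with medians of 18200 in sham and 603 in stroke, and 29 of the stroke barcodes were named microglia and 6 border macrophages. Leaving out all barcodes kept in more than 1 library gave log2 share ratios of -1.94 for T cells, -2.35 for border macrophages, -2.33 for B cells and 1.33 for pericytes, against -1.93, -2.37, -2.30 and 1.26 with them. Cells were clustered jointly and a cluster was named from fixed markers, so a name such as T cell stands for T-cell-like and nothing firmer.

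Lymphocytes and border macrophages took smaller shares of the anti-VCAM1 library, and mural and endothelial cells took larger ones. The fractions collected are not known, so for these shares, those of endothelial and mural cells included, the sort and the antibody cannot be told apart. Shares also depend on each other, so leukocyte classes were also set against leukocytes alone (microglia, T cells, border macrophages, B cells and plasma cells). On that scale T cells were 237 of 2023 leukocytes with isotype and 102 of 2009 with anti-VCAM1, or 11.7% (10.3 to 13.2) and 5.08% (4.16 to 6.13), a log2 ratio of -1.21 (-1.56 to -0.87). Border macrophages were 186 and 59 of the same leukocytes, 9.19% (7.97 to 10.5) and 2.94% (2.24 to 3.77), a log2 ratio of -1.65 (-2.09 to -1.22). B cells, the precursors of antibody-secreting plasma cells, were 87 and 29, a log2 ratio of -1.57 (-2.23 to -0.95). Microglia, the resident macrophages of the parenchyma, filled the remainder, at 1488 and 1819 cells and a log2 ratio of 0.30 (0.20 to 0.40).

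Of 3 smaller leukocyte clusters that carried no class name, 2 were lower in share of all kept cells beyond counting error. A cluster led by Cd209a, Mgl2, Ccl17 and class II genes, a set of antigen-presenting cell genes, held 73 cells or 2.58% with isotype and 23 cells or 0.494% with anti-VCAM1, a log2 ratio of -2.38 (-3.13 to -1.69). Its cells had a median of 11794 UMIs, above that of either library. A cluster led by S100a9 and S100a8, genes of neutrophils and monocytes, held 33 and 27 cells, a log2 ratio of -1.01 (-1.80 to -0.23). For a cluster with the natural killer genes Ncr1 and Klre1 among its leading genes, the counts of 12 and 9 cells gave an interval of the log2 ratio that reached 0 (-2.56 to 0.24). Set against leukocytes, these clusters included, the Cd209a cluster was 3.41% (2.68 to 4.27) with isotype and 1.11% (0.706 to 1.66) with anti-VCAM1. On that scale the S100a9 cluster was 1.54% (1.06 to 2.16) and 1.31% (0.862 to 1.89), so its intervals overlapped. Plasma cells, the antibody-secreting stage, were 25 of 2832 cells with isotype and 0 of 4657 with anti-VCAM1. Their shares were 0.883% (0.572 to 1.30) and 0% (0 to 0.0792). With 3 cells as the floor, the anti-VCAM1 limit of 0.0644% lay 13.7-fold below the isotype share. That factor leaves out the counting error of the 25 isotype cells.

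**Figure D1:**
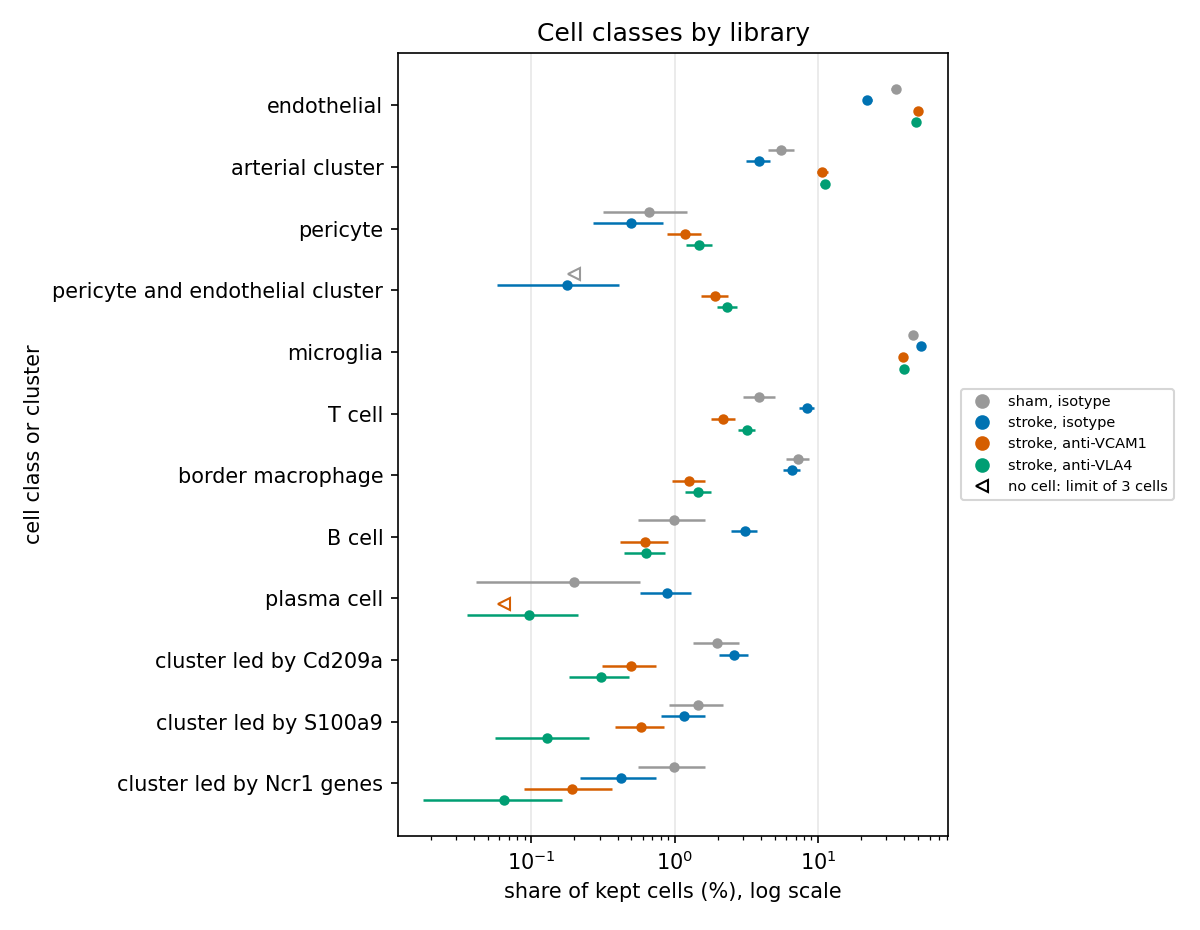
Share of kept cells in each class or cluster (percent, log axis) in the 4 libraries, with exact 95% binomial intervals; open triangles mark 0 cells at the limit of 3 cells, and the arterial cluster is also counted within endothelial cells. The anti-VCAM1 points lie left of the stroke isotype points for T cells, border macrophages, B cells and plasma cells, and right of them for pericytes and endothelial cells.

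A further readout used no clusters, only the summed level of each class's markers over all kept cells (CPM, UMIs of a gene scaled to equal library totals). It went the same way for T cells, border macrophages, B cells and plasma cells. As with shares of kept cells, these levels depend on the other classes. The 10 T cell markers, which encode the T cell receptor complex and its signalling proteins, summed to 504 CPM with isotype and 138 CPM with anti-VCAM1, and 10 of 10 were lower. Border macrophage markers summed to 546 and 214 CPM, with 8 of 8 lower. B cell markers summed to 1388 and 101 CPM, and most of that was Ighm, the heavy chain of IgM, at 1229 and 65.7 CPM. The plasma cell gene Jchain, which joins secreted IgM and IgA, was at 355 CPM (5959 UMIs) with isotype and 0.164 CPM (4 UMIs) with anti-VCAM1. Neutrophil markers summed to 674 and 712 CPM with 3 of 7 higher and 4 lower: S100a9 and S100a8, which take most of the sum with Csf3r, were at 211 and 305 and at 152 and 216 CPM, while Retnlg was at 27.0 and 1.97 CPM. Monocyte markers summed to 141 and 47.3 CPM, with 5 of 7 lower. Natural killer markers summed to 19.7 and 6.81 CPM, with 7 of 7 lower. Markers of dendritic cells, which present antigen, summed to 217 and 178 CPM. Of these 7 of 8 were lower, and Zbtb46 was higher at 39.9 and 63.7 CPM.

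Among T cells, Cd4 and the gamma-delta receptor transcripts Trdc and Tcrg-C1 were at lower levels with anti-VCAM1, while Tcrg-C2 was higher. Cd8a and Cd8b1 were level or higher. Cd4, the co-receptor of helper and regulatory T cells, was at 70.7 CPM with isotype (84 UMIs in 42 of 237 cells) and 21.1 CPM with anti-VCAM1 (11 UMIs in 6 of 102 cells), a log2 ratio of -1.69 (-2.80 to -0.83). After every cell was thinned to 1000 UMIs, which left out 7 and 4 shallower cells, a Cd4 UMI was found in 14 of 230 cells (6.09%, 3.37 to 10.0) and 1 of 98 (1.02%, 0.0258 to 5.55), so the intervals overlapped at that depth. Cd8a, a chain of the co-receptor of cytotoxic T cells, was at 281 and 273 CPM, and Cd8b1, the other chain, at 497 and 634 CPM, log2 ratios of -0.04 (-0.34 to 0.25) and 0.35 (0.15 to 0.55). Foxp3, the master regulator of regulatory T cells, had UMIs in 7 of 237 cells with isotype and in 0 of 102 with anti-VCAM1. At 1000 UMIs it was found in 3 of 230 and 0 of 98 cells, where 0 allows a share of up to 3.06% (3 counts of the total). Endothelial cells, which lack Cd4, served as background: a Cd4 UMI was found in 0 of 626 with isotype and 1 of 2321 with anti-VCAM1, at medians of 3898.5 and 4159 UMIs beside 4470 and 4778 in T cells.

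Of the 9 measurable T cell subset genes 3 were at least 2-fold lower, where 2.41% of the 4972 genes tested in T cells were, and 0 were 2-fold higher. Besides Cd4 these were Trdc, the constant region of the delta chain, at 72.4 and 28.8 CPM, and Tcrg-C1, a constant region of the gamma chain, at 50.5 and 21.1 CPM. These 3 met the filter on UMIs mainly through the isotype library. That count therefore describes the genes that passed and not the whole list of 11. The share of cells with a Trdc UMI was close in both libraries, 11 of 237 (4.64%, 2.34 to 8.15) and 4 of 102 (3.92%, 1.08 to 9.74), and 3.91% and 3.06% at 1000 UMIs. Tcrg-C2, a further gamma constant region that CD8 cells can also transcribe, was at 67.3 and 102 CPM. Cd4 and Trdc UMIs thus came from 6 and 4 cells of the anti-VCAM1 library.

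Of the 8 measurable checkpoint genes, which restrain T cells after repeated stimulation, 1 was at least 2-fold lower and 1 at least 2-fold higher, where 2.41% and 1.71% of genes tested in T cells were. Ctla4, a co-inhibitory receptor abundant in regulatory and activated T cells, was at 331 CPM with isotype and 119 CPM with anti-VCAM1, while sham cells held 65.4 CPM and anti-VLA4 cells 139.7 CPM. Its log2 ratio was -1.46 (-1.88 to -1.08), and a UMI was found in 106 of 237 cells and 22 of 102, or at 1000 UMIs in 22.6% (17.4 to 28.6) and 8.16% (3.59 to 15.5), against 0.958% and 0.732% of endothelial cells before thinning. Tox, a transcription factor of chronically stimulated T cells, was at 1051 and 673 CPM, a log2 ratio of -0.64 (-0.82 to -0.47), and Pdcd1, which encodes PD-1, was at 154 and 100 CPM, -0.62 (-1.10 to -0.17). Lag3, a further inhibitory receptor, went the other way at 30.3 and 65.4 CPM, a log2 ratio of 1.08 (0.39 to 1.83). That ratio was -0.13 without a cluster of 25 T cells with a median of 12042 UMIs, of which the isotype library held 9 and the anti-VCAM1 library 8. Over these 8 genes the median log2 ratio was -0.35, beside -0.05 over all genes tested.

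Cytotoxic effectors had 3 of 16 measurable members at least 2-fold higher with anti-VCAM1, where 1.71% of genes tested in T cells were. Those were the chemokine genes Ccl3 (41.2 and 273 CPM) and Ccl4 (352 and 1094 CPM) and the cytokine gene Tnf (110.3 and 252 CPM), with log2 ratios of 2.70 (2.25 to 3.23), 1.63 (1.45 to 1.82) and 1.18 (0.83 to 1.55). The sham library held 233, 1073 and 271 CPM of these genes and the anti-VLA4 library 76.9, 663 and 146 CPM. The anti-VCAM1 levels thus lay near those of sham. Ccl3 met the filter on UMIs mainly through the anti-VCAM1 library. The count of 3 therefore describes the genes that passed and not the whole list of 18. A Tnf UMI was found in 29.1% and 39.2% of cells, or 11.3% (7.52 to 16.1) and 19.4% (12.1 to 28.6) at 1000 UMIs, where endothelial cells gave 0 of 607 and 1 of 2291. Levels of the other abundant effectors were closer: Ccl5, the chemokine RANTES, at 3929.9 and 4695 CPM, Nkg7, a granule protein, at 864 and 965 CPM, and Gzmk, a granzyme, at 235 and 279 CPM.

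Ccl3, Ccl4 and Tnf are also transcribed by microglia, where Ccl4 stood at 1627 and 1525 CPM. The 9 microglia markers summed to 979.7 CPM in T cells with isotype and 1846 CPM with anti-VCAM1, against 3519 CPM in sham and 375 CPM with anti-VLA4, and none of the 9 was at 0 in these 4 libraries. The immediate early genes Zfp36 (101 and 290.3 CPM), Ier3 (27.8 and 138 CPM) and Atf3 (124 and 258 CPM) respond to tissue dissociation. They were 2-fold higher in T cells too, as 3 of 18 measurable dissociation stress genes, where 1.71% of genes tested were. Of that list 0 were 2-fold lower, and the median was 0.16 beside -0.05 over all genes tested. A single cell held 69.4% of the Ier3 UMIs and 42.5% of the Atf3 UMIs in 1 library. The part of the dissociation stress genes and of the microglia markers in the effector values was not tested. Without the 25 cells of high UMI count, the log2 ratio was 1.59 for Ccl3, 0.82 for Ccl4 and 1.18 for Tnf, and the number of T cell genes at least 2-fold higher was 23 in place of 85.

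Homing genes differed little among the T cells that were found. Itga4, the alpha chain of VLA4, was at 598 and 521 CPM, a log2 ratio of -0.20 (-0.41 to 0.01), and Itgb7, which pairs with it in gut-homing cells, was at 120.4 and 156 CPM, 0.37 (-0.04 to 0.77). Of the 10 measurable adhesion and homing genes 0 were past 2-fold, while 1 had an interval above 0 and 0 had one below. Their log2 ratios ran from -0.32 to 0.41, with a median of -0.02. The tissue residency list, genes of T cells that stay in tissue, had 0 of 9 past 2-fold, with the residency chemokine receptor Cxcr6 at 454 and 549.8 CPM. The naive and recirculating list had 0 of 6 past 2-fold and a median of -0.22. Slc10a7, Tsc22d2, Ern1 and Hdac4 made up, with Ctla4, the 5 lowest log2 ratios in T cells (-1.46 to -1.91), and Man2b1 and Fhit joined Ccl4, Zfp36 and Tnf among the 5 highest (1.15 to 1.63).

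**Figure D2:**
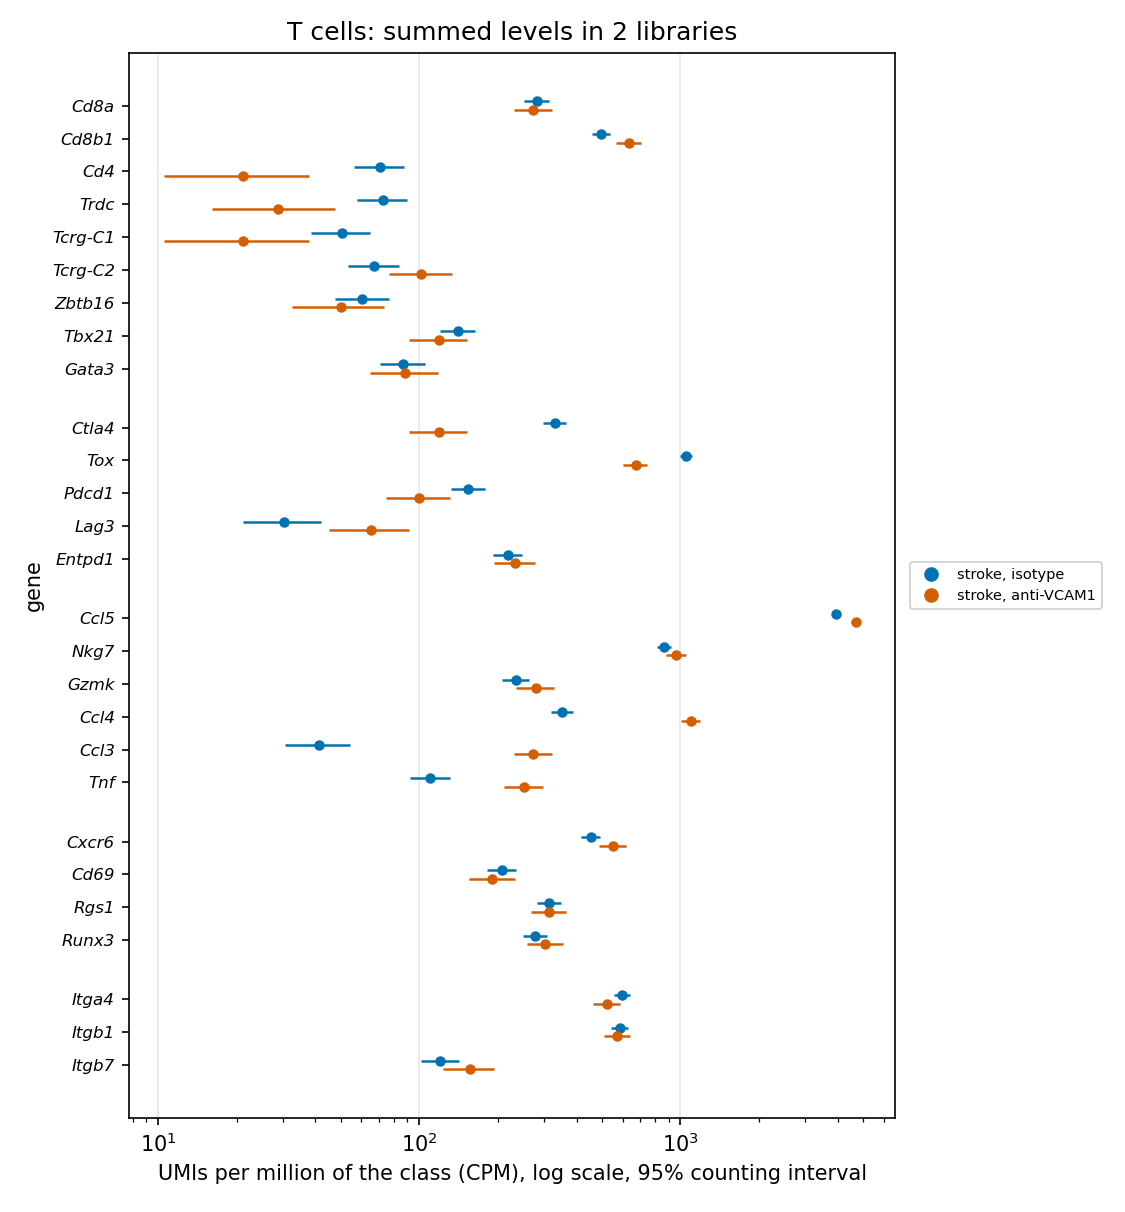
Levels of T cell genes (CPM of all UMIs of the class, log axis, with exact Poisson intervals) with isotype and anti-VCAM1, in blocks of lineage, checkpoint, effector, residency and VLA4 integrin genes. The intervals of Cd4, Ctla4 and Tox with anti-VCAM1 lie below those with isotype, and those of Ccl3, Ccl4 and Tnf lie above.

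Border macrophages of the anti-VCAM1 library held less of the interferon-induced transcripts than those with isotype. Type I interferons induce a set of antiviral genes, and macrophages at the brain borders are among the cells that respond. Ifit2, an antiviral protein that binds RNA, was at 84.9 CPM with isotype (98 UMIs in 21 of 186 cells) and 2.46 CPM with anti-VCAM1 (1 UMI among 59 cells), against 176 CPM in sham and 81.9 CPM with anti-VLA4. Its log2 ratio of -4.63 had an interval of -10.43 to -2.60. Ifit3, of the same family, was at 74.5 and 4.92 CPM (86 and 2 UMIs), a log2 ratio of -3.67 (-6.99 to -2.02). Iigp1, an interferon-inducible GTPase, was at 42.4 and 2.46 CPM (49 and 1 UMIs), a log2 ratio of -3.65 (-9.44 to -1.56). In each of the 3 the anti-VCAM1 library was the lowest of the 4.

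Of the 18 measurable genes of the interferon and MHC class I list 7 were at least 2-fold lower in border macrophages, where 1.83% of the 4709 genes tested were, and 0 were 2-fold higher. All 7 met the filter on UMIs mainly through the isotype library. That count therefore describes the genes that passed and not the whole list of 24. Oasl2, related to the oligoadenylate synthetases, was at 74.5 and 17.2 CPM, and Isg15, a ubiquitin-like protein, at 93.6 and 27.1 CPM, log2 ratios of -2.05 (-3.47 to -1.01) and -1.75 (-2.83 to -0.89). Stat2, which carries the interferon signal to the nucleus, was at 54.6 and 24.6 CPM, and Rtp4, a further induced gene, at 52.8 and 24.6 CPM. The list's median was -0.70, beside 0.02 over all genes tested. Its class I members were closer to level, with H2-D1, a class I heavy chain, at 737 and 901 CPM and B2m, the shared light chain, at 1065 and 949.8 CPM.

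The share of cells with these transcripts is given as a description, since its 11 interferon-induced genes were chosen from the list after their values had been seen. UMIs of at least 2 of the 11 were found in 63 of 186 border macrophages with isotype (33.9%, 27.1 to 41.2) and 8 of 59 with anti-VCAM1 (13.6%, 6.04 to 24.98). At 1000 UMIs a cell these were 23 of 175 (13.1%, 8.52 to 19.1) and 0 of 57, which allows a share of up to 5.26% (3 counts of the total). Shares in the sham and anti-VLA4 libraries were 32.1% and 31.9%, close to that with isotype. The same measure in endothelial cells gave 54.95% with isotype and 57.6% with anti-VCAM1, and 24.4% (21.0 to 28.0) and 20.4% (18.8 to 22.1) at 1000 UMIs. In endothelial cells 13 of 24 list genes had an interval below 0 and 5 above, where 22.4% and 13.3% of genes tested did, with 0 past 2-fold. In T cells the measure was 20.7% and 15.7%, and in microglia 4.10% and 4.23%. The list's median was -0.21 in endothelial cells, 0.12 in T cells and -0.05 in microglia.

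The interferon-induced genes are shown with their promoters because they were lower together. The interferon-stimulated response element holds 2 copies of GAAA spaced by 2 bases of any kind, and these letters were searched on both strands in RefSeq windows (GRCm38.p6) from 250 bases before to 50 after each gene's start. A match was present for 1079 of 27025 genes (3.99%), for 10 of the 19 list genes with a window, and for 3 of the 5 with a window among the 7 lower genes. Capitals mark the matches below, each stretch being written 5′ to 3′ on the gene's strand. Ifit3 (chr19:34583333-34583456, plus strand) had 2 matches, both on the opposite strand, Isg15 (chr4:156200835-156200936, minus strand) had 3 overlapping ones, and Stat2 (chr10:128270248-128270325, plus strand) had 1 on the opposite strand. A match describes these letters and is not a binding site measured here.
Ifit3: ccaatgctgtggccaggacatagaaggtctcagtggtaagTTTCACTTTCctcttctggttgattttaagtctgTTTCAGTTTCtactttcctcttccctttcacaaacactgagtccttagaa
Isg15: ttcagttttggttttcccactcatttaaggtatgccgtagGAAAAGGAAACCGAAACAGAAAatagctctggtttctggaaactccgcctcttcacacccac
Stat2: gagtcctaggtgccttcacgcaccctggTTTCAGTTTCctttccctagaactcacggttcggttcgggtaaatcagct

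Antigen presentation genes of border macrophages were lower by a smaller amount. MHC class II molecules show peptides to CD4 T cells, and Cd74, their invariant chain, was at 13012 CPM with isotype and 10947 CPM with anti-VCAM1, a log2 ratio of -0.25 (-0.30 to -0.20). H2-Aa stood at 4563 and 3848 CPM, H2-Eb1 at 5163 and 4350.2 CPM and H2-Ab1 at 3497 and 2729 CPM. Of the 7 measurable class II genes 4 had an interval below 0, where 6.63% of genes tested did, 0 were past 2-fold, and the median was -0.25. The class II sum was 28830.1 CPM in sham and 29331.6 CPM with anti-VLA4, above the 27173 CPM with isotype and the 22730.1 CPM with anti-VCAM1.

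Scavenger receptors that mark resident perivascular macrophages split. Lyve1, a hyaluronan receptor, was at 114 and 41.8 CPM, Cd163, the haemoglobin scavenger receptor, at 152 and 61.5 CPM, and Colec12, a scavenger collectin, at 148 and 64.0 CPM, with log2 ratios of -1.43 (-2.27 to -0.72), -1.30 (-1.98 to -0.70) and -1.20 (-1.87 to -0.61). The share of cells with a UMI differed less: 14.5% and 6.78% for Lyve1, 20.4% and 18.6% for Cd163, and 16.7% and 16.9% for Colec12. A single cell held 76.5% of the Lyve1 UMIs with anti-VCAM1, and no T cell of either library had a Lyve1 or Cd163 UMI. These 3 of 10 measurable members were at least 2-fold lower, where 1.83% of genes tested were. The other 7 were within 2-fold, and the median was -0.05. All 3 met the filter on UMIs mainly through the isotype library. That count describes the genes that passed and not the whole list of 11.

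Genes of recently arrived, monocyte-derived macrophages had a median of 0.60 over 8 measurable members, with S100a4 at 52.0 and 125 CPM and S100a6 at 128 and 251 CPM, both calcium-binding proteins. These values depended on which cells were counted. With classes drawn from the markers of single cells rather than of clusters, S100a4 had a log2 ratio of -1.10 in place of 1.26, and S100a6 one of -1.01 in place of 0.96. Lgals3, a galectin, and Fabp5, a fatty acid binding protein, were at 214 and 512 CPM and at 19.1 and 386 CPM, but without the cell with the most UMIs their log2 ratios were -0.31 and -1.15. The monocyte recruitment receptor Ccr2 had UMIs in 33.9% and 39.0% of cells.

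Inflammatory genes of border macrophages went both ways. Il1b, the cytokine interleukin 1 beta, was at 1052 and 775 CPM, a log2 ratio of -0.44 (-0.62 to -0.26), while Cxcl2, a neutrophil-attracting chemokine, was at 412 and 1041 CPM, 1.33 (1.14 to 1.53). Over the 15 measurable members 1 was at least 2-fold higher, where 0.913% of genes tested were, 1 was 2-fold lower and the median was -0.09. Complement genes, by which macrophages tag debris, were near level, with C1qa at 3934 and 3974 CPM and a list median of 0.07. Csf1, a macrophage growth factor, was at 64.1 and 4.92 CPM, but those UMIs came from 5 cells and 2 cells, and the log2 ratio was 0.46 with cells named on their own markers.

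Vcam1 itself, the target of the antibody, is transcribed by border macrophages, at 213 CPM with isotype and 342 CPM with anti-VCAM1 (24.7% and 33.9% of cells with a UMI), against 163 CPM in sham and 357 CPM with anti-VLA4. In endothelial cells it stood at 42.5 and 27.5 CPM, and in microglia at 54.8 and 32.7 CPM. A single cell held 28.8% of its UMIs in 1 library, and without it the log2 ratio was 0.38 in place of 0.68. The 10 endothelial markers, of which 3 were at 0 with isotype and 0 with anti-VCAM1, summed to 41.6 and 362 CPM in border macrophages, and to 2132 CPM in the anti-VLA4 library. Their part in the Vcam1 values was not tested. Outside the fixed lists, Osbpl3, the prostaglandin E2 receptor gene Ptger4, Nampt, Trim30d and the cyclin gene Ccnd2 had the 5 lowest log2 ratios (-1.39 to -1.80). Eml6, Nuak1, Gmds, the haem-degrading enzyme gene Hmox1 and Eid1 had the 5 highest (0.93 to 1.08), of which Hmox1 was at -0.10 in place of 0.96 with single cells named by their markers.

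**Figure D3:**
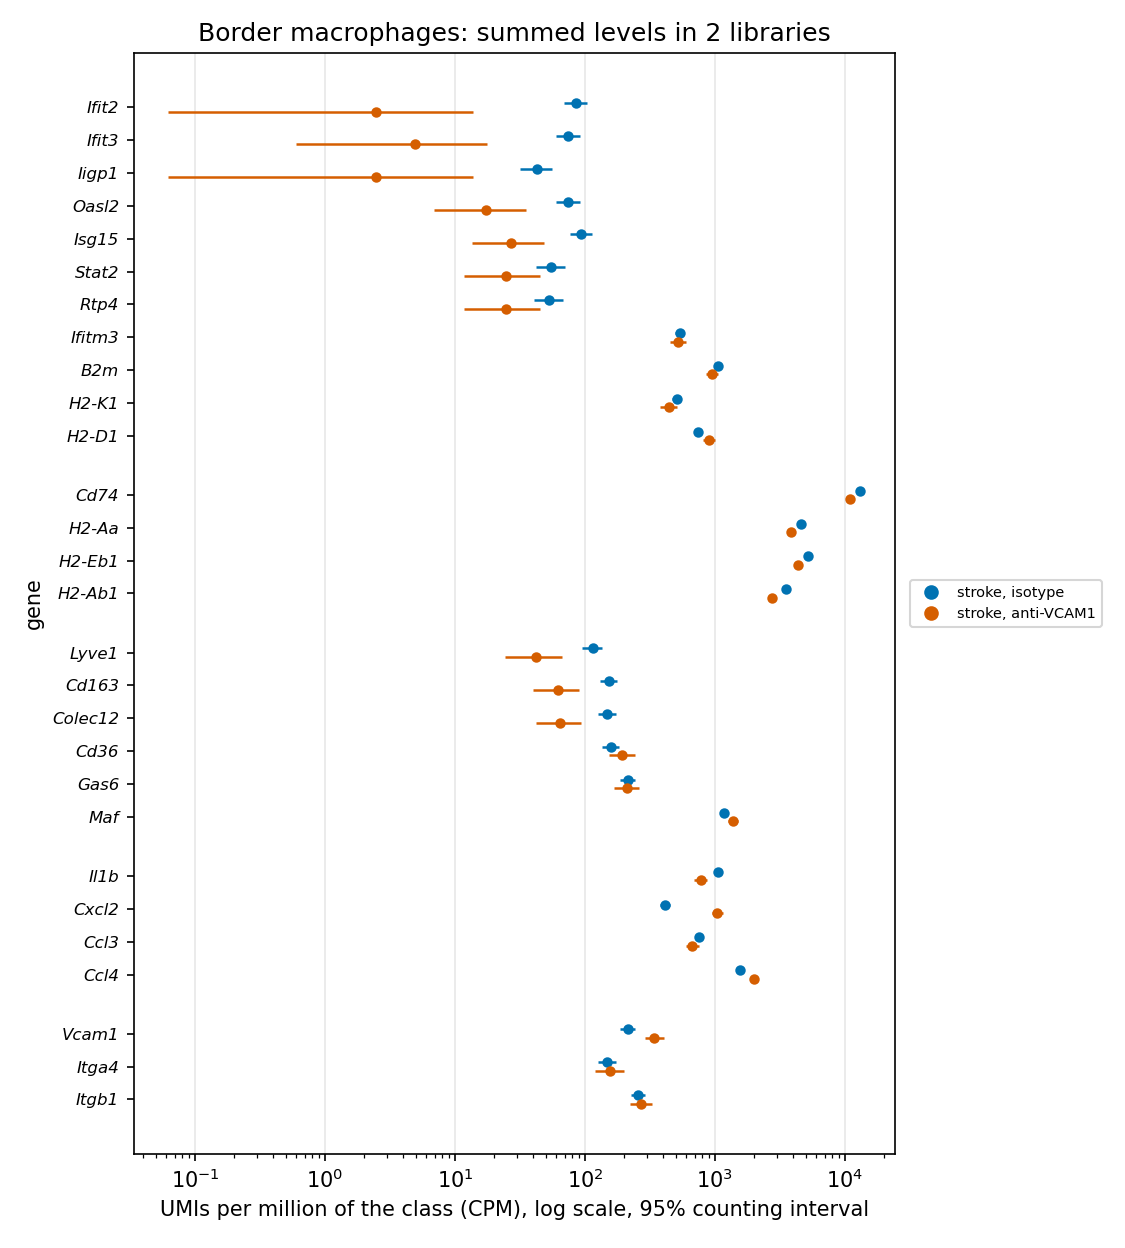
Levels of border macrophage genes (CPM of all UMIs of the class, log axis, with exact Poisson intervals) with isotype and anti-VCAM1, in blocks of interferon and class I, class II, scavenger, cytokine and VCAM1 axis genes. Ifit2, Ifit3 and Iigp1 with anti-VCAM1 lie at 2.46 to 4.92 CPM with wide intervals, while the class II genes plotted lie between 2729 and 13012 CPM.

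Mural cells were more frequent in the anti-VCAM1 library, and so were their transcripts over the whole library. Pericytes were 14 of 2832 cells with isotype and 55 of 4657 with anti-VCAM1, 0.494% (0.271 to 0.828) and 1.18% (0.891 to 1.53). A cluster led by endothelial genes that also carried pericyte markers, and so has no class name, held 5 and 89 cells, a log2 ratio of 3.44 (2.16 to 5.09). It held 0 cells in sham and 145 with anti-VLA4, a share of 2.34% beside 1.91% with anti-VCAM1. Clustering at resolution 0.5 gave a pericyte log2 ratio of 2.27 in place of 1.26. All 9 pericyte markers were higher over the whole library, for example Rgs5, a regulator of G protein signalling, at 46.5 and 247.7 CPM and Vtn, vitronectin, at 48.7 and 166 CPM. The sham library held 46.4 and 42.4 CPM of these and the anti-VLA4 library 297 and 216 CPM.

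Smooth muscle markers were higher by a larger factor, at 3.63 CPM with isotype and 45.4 CPM with anti-VCAM1. The sham library held 5.99 CPM of them and the anti-VLA4 library 9.43 CPM. Acta2, smooth muscle actin, was at 1.43 and 18.7 CPM over the whole library (24 and 455 UMIs), Tagln, the actin-binding protein transgelin, at 0.595 and 14.8 CPM, and Myh11, smooth muscle myosin, at 0.893 and 6.11 CPM. Most of that lay in a few cells of the pericyte class: Acta2 had 416 UMIs in 7 of 55 cells with anti-VCAM1 and 18 UMIs in 1 of 14 with isotype, and Tagln 343 UMIs in 6 cells and 5 UMIs in 1. Des, the intermediate filament desmin, was spread more widely, with 58 UMIs in 21 cells and 2 UMIs in 2 cells. No cluster of smooth muscle cells was resolved, so cells with these transcripts stayed in the pericyte class.

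The pericyte class also held Vcam1, with 62 UMIs in 4 of 55 cells with anti-VCAM1 and 1 UMI in 1 of 14 cells with isotype. Shares of cells with a UMI were thus close. Vcam1 met the filter on UMIs through the anti-VCAM1 library, so no ratio is read. Vcam1 was at 0 UMIs in the 10 sham and 92 anti-VLA4 pericytes. Contractile genes gave no count to read, since Tagln, Des and Myh11 met the filter on UMIs through the anti-VCAM1 library, where they were high. Myl9, a myosin light chain present in most cells of the class, was at 935 and 1228 CPM, and Cald1, caldesmon, at 2817 and 2430.3 CPM. Acta2, Tagln and Myh11 had UMIs in 6 to 11 of the 55 anti-VCAM1 pericytes, and Des and Tpm2 in 21 and 23.

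Some transport and basement membrane genes of pericytes were lower with anti-VCAM1 in this small class, as was the sum of the class's own markers. Slc38a11, an amino acid carrier, was at 922 and 426 CPM, Slc6a20a, a proline carrier, at 805 and 470.1 CPM, and Slc30a10, a manganese exporter, at 234 and 84.8 CPM, with log2 ratios of -1.11 (-1.52 to -0.69), -0.77 (-1.20 to -0.34) and -1.45 (-2.33 to -0.55). Of the 6 measurable transport genes 2 were at least 2-fold lower, where 3.32% of the 1930 genes tested in pericytes were. The list's median was -0.82 beside 0.08 over all genes tested. Such counts and shares rest on 14 isotype cells and 55 with anti-VCAM1, and describe those cells only. The list summed to 5099 CPM in sham, 2908 with isotype, 1780 with anti-VCAM1 and 1697 with anti-VLA4. Nid1 (350.5 and 131 CPM) and Lama2 (818 and 313 CPM), which encode nidogen and a laminin chain of the basement membrane, were 2-fold lower too, as 2 of 11 measurable members of a list with a median of -0.30. The 9 markers of the class itself summed to 22105 CPM with isotype and 17582 CPM with anti-VCAM1. Among these, Atp13a5 was at 2194 and 994 CPM, while Higd1b was at 922 and 997 CPM. Endothelial markers summed to 7697 CPM in pericytes with isotype and 10312 CPM with anti-VCAM1, against 1368 CPM in sham, and the nuclear transcript Malat1 stood at 53634 and 30646 CPM. The part of these markers and of Malat1 in the pericyte values was not tested. Longer genes ran lower in pericytes, with a slope of the log2 ratio of -0.24 per log10 of gene span (length on the genome).

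**Figure D4:**
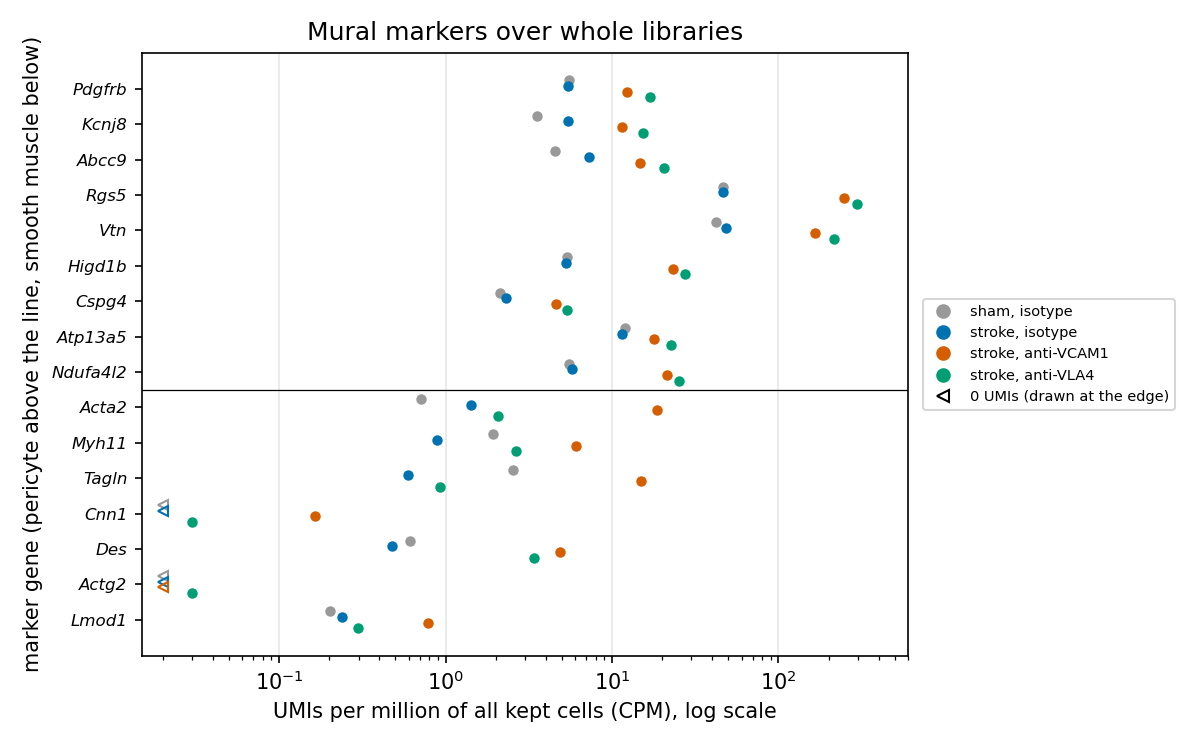
Level of each pericyte and smooth muscle marker over all kept cells of a library (CPM, log axis), 1 point a library, with triangles at the edge for 0 UMIs. The 9 pericyte markers lie higher with either blocking antibody than with isotype, and Acta2, Tagln and Myh11 lie highest with anti-VCAM1.

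In endothelial cells few genes were past 2-fold, 0.2% of 10496 higher and 1.11% lower. Longer genes ran lower in this class too, with a slope of the log2 ratio of -0.30 per log10 of gene span. That slope was -0.12 in T cells, -0.05 in border macrophages and -0.03 in microglia. The class lay in different clusters in the 2 libraries, with 51.3% and 30.8% of its cells in a cluster led by Ptprg and Mecom and 7.99% and 20.8% in one led by Ly6c1 and Ramp2, and the values below are over all of its cells. The largest ratio by the naming rule was that of Sox18, a transcription factor of vessel and lymphatic development, at 164 CPM with isotype and 439.5 CPM with anti-VCAM1, a log2 ratio of 1.41 (1.28 to 1.56). The sham and anti-VLA4 libraries were at 427 and 411 CPM, so the isotype library was the one that stood apart. Isotype was also the lowest of the 4 for Tmem128, at 56.0, 32.7, 68.3 and 68.0 CPM in sham, isotype, anti-VCAM1 and anti-VLA4, and for Ccn1, a matricellular protein, at 60.8, 27.4, 52.5 and 47.7 CPM. Il1r1, the interleukin 1 receptor, was at 77.6 and 24.96 CPM, a log2 ratio of -1.60 (-1.90 to -1.38). A cluster led by Il1r1 and Vwf, genes of venous endothelium, was clustered without Il1r1 and held 14 of 626 endothelial cells with isotype and 7 of 2321 with anti-VCAM1, 2.24% (1.23 to 3.72) and 0.302% (0.121 to 0.620). An arterial cluster led by Stmn2 and Gkn3 held 17.4% (14.5 to 20.6) and 21.5% (19.9 to 23.3) of them. Haemoglobin UMIs in endothelial cells were 2595 CPM with isotype and 252 CPM with anti-VCAM1, against 275 CPM in sham and 2007 CPM with anti-VLA4. Over all kept cells they were at 2229 CPM with isotype and 2130 CPM with anti-VCAM1, so the class difference does not hold for the whole libraries.

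Microglia had 0.278% of 11171 genes at least 2-fold higher and 0.143% lower. Dissociation stress genes, a list of immediate early genes and heat shock chaperones, were lower with anti-VCAM1. Of 18 measurable, 16 had an interval below 0, where 7.97% of genes tested did, and the median was -0.34. Fosb was at 279 and 123 CPM, Jun at 3420.3 and 2634 CPM and Atf3 at 1494 and 1064 CPM. Of 15 inflammatory genes 11 had an interval below 0, with a median of -0.31, but the abundant chemokine genes differed by little, Ccl3 at 553 and 498 CPM and Ccl4 at 1627 and 1525 CPM. The dissociation stress genes moved with that list, and their part in it was not tested. Apoe, an apolipoprotein that microglia transcribe after injury, was at 1459 and 1928 CPM, 0.40 (0.37 to 0.43), against 414 CPM in sham. Homeostatic microglia genes had 0 of 12 past 2-fold and a median of 0.05.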

How the data were processed

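The authors deposited raw UMI counts per gene and barcode for 4 libraries, and the file headers name Cell Ranger 7.0.1. The submitters' processing notes name Cell Ranger 6.0.0, Seurat 4.3.0.1 and the builds mm10 and GRCh38, without roles, so the version that made the counts is given differently in the 2 sources. Members and lists were chosen with earlier results of these data known.

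Scrublet doublets (24 with isotype, 63 with anti-VCAM1, 0.840% and 1.33%) were left out. Kept cells of all libraries were clustered with scanpy 1.11.5 and leidenalg 0.10.2 (2000 variable genes, 30 components, 15 neighbours, resolution 1), without 378 list, mitochondrial, ribosomal and haemoglobin genes. Of 24 clusters 19 were named, each with 3 or more markers found in 25% or more of its cells at a log2 fold of 1 or above, fewer than 5 markers of a second class, and no other class ahead of it among the top 10 genes. Allowing ties, and comparing a cluster with cells of other classes, were decided with the clusters in view. UMIs were summed per class. Log2 ratios have a pseudocount of 1 CPM, their conditional binomial intervals none, so a point can lie off its interval's centre. Genes needed 50 UMIs over both libraries, which a gene can meet through the library where it is high, so list counts describe the genes that passed. The intervals were checked on simulated data. No test, p-value or standard error was computed, since each group was 1 library.

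Named genes were Vcam1, Itga4, Itgb1 and Itgb7, all T cell subset genes, the 4 most abundant members of each list with any past 2-fold whose interval left out 0, and the 5 highest and lowest ratios per class (at least 100 UMIs and 50 CPM, not over 5 times higher in another class, no cell with over 25% of the UMIs). Class markers and the genes that lead a cluster are named as such, and Malat1 was given outside the rule. Alternatives were another cell filter, doublets kept, resolution 0.5, 2 libraries clustered alone, cells named on their own markers, thinning, centring, gene span (GENCODE M21), a pseudocount of 5 CPM, 100 UMIs, and leaving out the cell with the highest count. Leaving out shared barcodes, a high-UMI T cell cluster or 2 low-UMI microglia clusters was chosen after seeing the data.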

Additional observations from a re-analysis of the deposited data

How the results depend on the processing

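No paired analysis was possible because each group was 1 library. Of 65 alternative values of share ratios 62 moved by less than their interval. The pericyte ratio was 2.27 at resolution 0.5, and the endothelial ratio 0.81 there and 0.86 with the 2 libraries clustered alone. Marker ratios of whole libraries moved in 2 of 22, endothelial to 1.55 with doublets kept and microglia to -0.39 with all barcodes.

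Counts of genes past 2-fold were less stable, with 68 of 100 within 1.5 times. Genes higher in T cells were 31 with cells named on their own markers, 10 with thinned cells, 41 at 100 UMIs, 45 without the cell with the highest count and 23 without the high-UMI cluster, and those lower were 21 with thinned cells and 37 at 100 UMIs. In border macrophages the higher and lower counts were 4 and 17 with thinned cells, 10 and 27 at 100 UMIs, and 10 and 136 without the highest cell. In endothelial cells the higher count was 12 with 2 libraries clustered, and the higher and lower counts were 66 and 54 on own markers, 62 and 68 thinned, 2 and 57 with a pseudocount of 5 CPM, and 12 and 60 at 100 UMIs. The lower count there was 57 with doublets kept and 66 without the highest cell. In microglia the higher count was 165 with doublets kept and 19 with thinned cells, and the higher and lower counts were 19 and 101 on own markers, 5 and 7 with a pseudocount of 5 CPM, and 11 and 9 at 100 UMIs. Thinning and the stricter count filter test fewer genes, and the cause of the other moves was not tested.

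Of 2583 alternative ratios of named genes (those under the UMI filter in a setting left out, except without the highest cell), 243 moved outside their interval, and 9, of genes past 2-fold, changed sign. The sign changes given above for S100a6 and Hmox1 were of genes not past 2-fold, and those for Lag3 and Csf1 of genes under 50 UMIs in that setting. Without the highest cell these were Fabp5 (-1.15), Lgals3 (-0.31) and Spp1 (-0.42) in border macrophages, Cxcl2 (0.45) and Spp1 (1.33) in microglia and Hspa1a (1.40) in pericytes. S100a4 in border macrophages was -1.10 on own markers, and Cxcl2 in microglia 1.46 at resolution 0.5 and 1.48 with 2 libraries clustered. Of 413 list medians 374 moved by less than their spread. The 14 isotype pericytes and 59 anti-VCAM1 border macrophages limit what can be seen in those classes.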
